A study of Solanum lycopersicum with 8 samples.

Results

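Common tomato reference genes are transcripts that laboratories use as internal standards in quantitative PCR, on the premise that they hold a steady level. The 8 examined here were taken by their IDs: the actins ACT (Solyc03g078400) and Tom51 (Solyc11g005330), ubiquitin (Solyc07g064130), EF1alpha (Solyc06g005060), CAC (Solyc08g006960), TIP41 (Solyc10g049850), SAND (Solyc03g115810) and Expressed (Solyc07g025390). All 8 were found among the 34725 gene IDs of the count files, and all 8 were among the 20409 genes with enough counts to be tested. The libraries were made from tomato (Solanum lycopersicum), cultivar M82. The trichome group holds 4 libraries from gland cells isolated from type VI trichomes, leaf hairs with a head of secretory cells, and is labelled as complemented line 4. The leaf group holds 4 libraries from leaves shaved of their trichomes and is labelled as the af mutant. Plants of both groups were 5 weeks old and had grown at 28 °C under 250 µE of light. Each tissue was collected 4 times, and libraries with the same number share a sampling time. The labelled genotypes differ between the tissues whereas the protocol text describes shaving the very plants that gave the trichomes, so tissue and labelled genotype cannot be told apart.

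A reference gene divides out differences in RNA input and in the yield of reverse transcription, so any change of its own is passed on, with opposite sign, to every gene measured against it. Traditional choices are abundant transcripts of the cytoskeleton (actin), of translation (EF1alpha, the factor that brings aminoacyl-tRNA to the ribosome) and of protein turnover (ubiquitin, the small protein whose attachment marks others for degradation). CAC, TIP41, SAND and Expressed are newer choices. CAC is the medium subunit of a clathrin adaptor complex, which sorts cargo into vesicles. TIP41 is named after a yeast protein of the TOR signalling pathway, SAND proteins act in membrane fusion on the way to the vacuole in yeast, and Expressed was named as an expressed sequence without a known function.

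The files pair no ID with a name. A RefSeq gene table of another assembly holds a name at the matching chromosome and relative position for 4 of the 8 genes: ACT, Tom51, CAC and EF1alpha, the last under the synonym LeEF-1. The names ubiquitin, TIP41, SAND and Expressed rest on the list of IDs alone. Actins, EF1alpha and ubiquitin belong to gene families with very similar members, and for these 4 genes it is uncertain how reads were shared out among copies.

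Gene totals ran from 24596280 to 26514416 counts in trichome and from 19209754 to 34941715 in leaf. Levels are CPM, read counts scaled to the library total, divided by TMM factors, which align the bulk of genes between libraries. These factors ran from 0.774 (replicate 4) to 1.02 in trichome and from 0.936 (replicate 4) to 1.24 (replicate 2) in leaf. Log2 CPM correlated at 0.960 to 0.981 among trichome libraries, at 0.923 to 0.971 among leaf libraries and at 0.515 to 0.591 between the tissues. The tissue labels held against markers: the summed level of 3 gland genes was 8750.6 to 15370.5 CPM in trichome and 14.4 to 89.8 in leaf, and that of 3 mesophyll genes 1242 to 1699 CPM in trichome and 16445 to 24346 in leaf. Genes of the tips of other glandular hairs were also higher in trichome, with a summed level for 2 genes of 55.5 to 105.8 CPM against 0.459 to 8.64 CPM in leaf. Of 2 genes of other epidermal cells, Solyc02g085870 was higher (log2 fold change 1.03) and Solyc01g091630 lower in trichome (55.8 ± 2.91 CPM in trichome and 111.9 ± 15.3 CPM in leaf), with a summed level of 309.5 to 409.5 CPM in trichome and 238.8 to 280.9 CPM in leaf. Solyc11g017010, listed as a phloem gene, was at 1.11 to 2.32 CPM in trichome and 109.5 to 243.2 CPM in leaf. The part of these other cell types in the results was not tested.

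Of the 8 reference genes, 6 were higher in trichome and 2, ACT and SAND, did not pass the test (edgeR's quasi-likelihood test with a threshold of 0.05 on the Benjamini-Hochberg adjusted p). Over all tested genes the same test called 72.4%, with 33.9% higher and 38.5% lower in trichome. The share of reference genes called was thus near the background share, and all 6 calls lay on the trichome side. The same 6 genes had trichome and leaf values that did not overlap, beside 68.3% of tested genes in either direction and 31.5% with trichome the higher. With library size alone 5 of the 8 were called, beside 66.7% of tested genes. Of these, 4 were higher in trichome (ubiquitin, CAC, TIP41 and Expressed), beside 25.8% of tested genes, and ACT was lower. On that scale a different 6 of the 8 did not overlap, beside 63.5% of tested genes in either direction. ACT and SAND lay lower in trichome, and ubiquitin, CAC, TIP41 and Expressed lay higher. Tom51 and EF1alpha overlapped between the tissues on that scale. The median log2 fold change of the 8 was 0.73, beside -0.09 for all tested genes. Calls that also reached 2-fold numbered 2 of 8 (ubiquitin and Expressed), beside 54.0% of tested genes. In bulk RNA of this kind a different mix of cells and a different level per cell cannot be told apart.

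**Figure D1:**
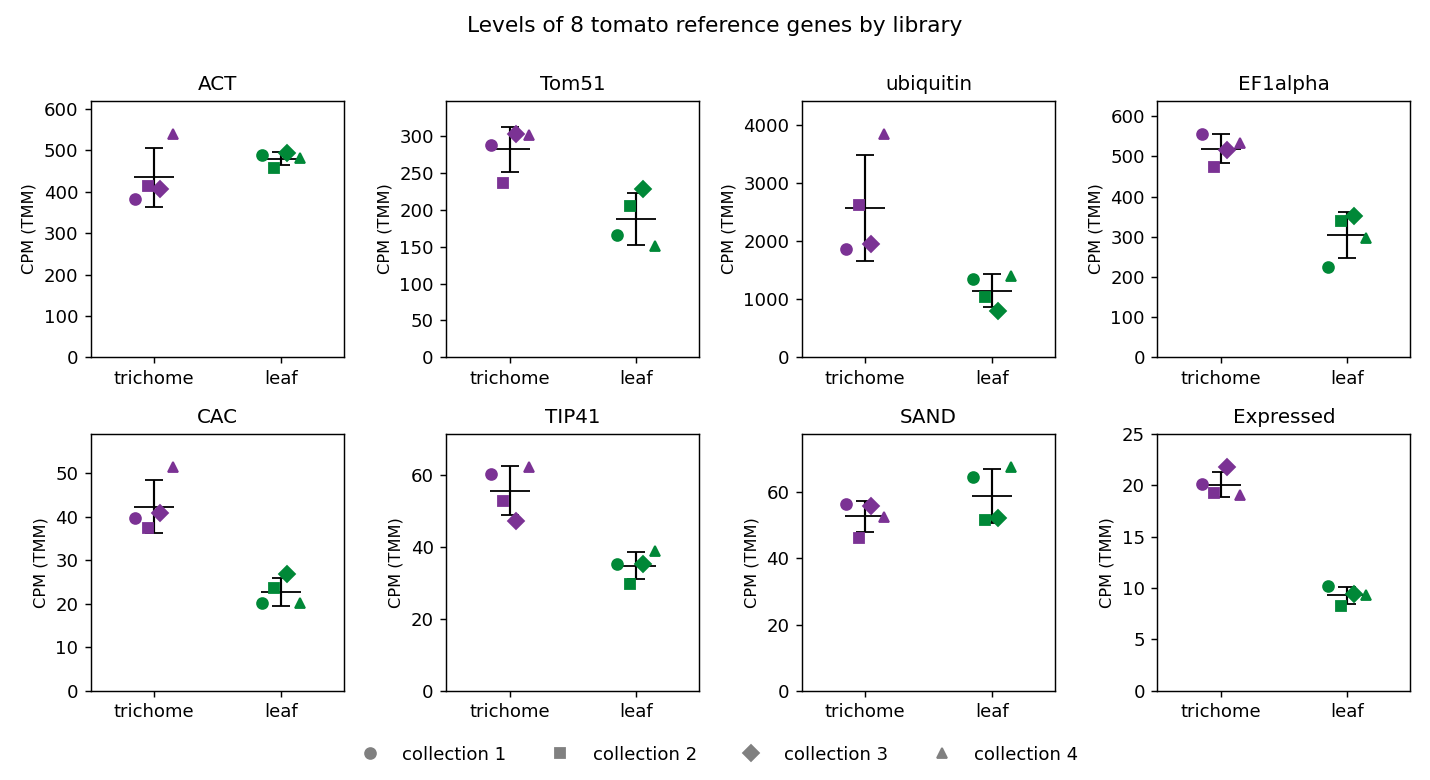
TMM-normalised level (CPM, linear axes from 0) of each reference gene in the 4 trichome and 4 leaf libraries. Point shapes mark the collection, the bar is the mean and the whiskers are 1 SD (n = 4). ACT and SAND overlap between the tissues, and the other 6 genes lie wholly higher in trichome.

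Of the cytoskeletal genes, ACT was at 381.7, 412.9, 406.0 and 539.8 CPM in trichome replicates 1 to 4, and at 488.1, 458.4, 493.6 and 481.3 CPM in leaf replicates 1 to 4. The leaf libraries were tightly grouped, and trichome replicate 4 lay above all of them while the other trichome libraries lay below. The log2 fold change was -0.14 (SE 0.17, edgeR adjusted p = 0.463), and the 95% interval from limma-voom ran from -0.49 to 0.19. Scaled to library size alone, the same 4 trichome libraries stood at 383.4, 383.3, 415.5 and 417.7 CPM, against 504.5, 568.3, 557.5 and 450.7 CPM in leaf. On that scale the tissues no longer overlapped, and ACT was called lower in trichome (log2 fold change -0.38, edgeR adjusted p = 0.0491). The factor of 0.774 of trichome replicate 4 moved with the high value there, and its part in the result was not tested.

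Tom51, the other actin, was at 288.0, 237.2, 303.3 and 301.4 CPM in trichome and at 166.4, 205.9, 228.5 and 150.8 CPM in leaf. Every trichome library exceeded every leaf library, although trichome replicate 2 and leaf replicate 3 were close. It rose by 0.59 on the log2 scale (SE 0.18, edgeR adjusted p = 0.0150), a call lost with library size alone (0.35, adjusted p = 0.208) and without collection 1 (adjusted p = 0.0917) or collection 4 (adjusted p = 0.0546). The 2 actins therefore gave unlike readings in the same libraries. The count of ACT was 1.33, 1.74, 1.34 and 1.79 times that of Tom51 in trichome and 2.93, 2.23, 2.16 and 3.19 times in leaf, a comparison within libraries that no scaling factor touches.

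EF1alpha had 556.0, 473.4, 515.8 and 534.0 CPM in trichome and 224.4, 339.9, 351.8 and 297.8 CPM in leaf. The trichome libraries were close together, and leaf replicate 1 was the lowest of all. The log2 fold change was 0.78 (SE 0.19, edgeR adjusted p = 0.0042), with 0.54 and an adjusted p of 0.0567 under library size alone. Between collections the trichome excess was uneven, from 0.48 in collection 2 to 1.31 in collection 1 on the log2 scale.

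Ubiquitin was the most variable of the 8 genes. It reached 1871, 2626, 1957 and 3847 CPM in trichome and 1352, 1044, 788.1 and 1396 CPM in leaf. The tissues did not overlap, and trichome replicate 4 stood far above the other trichome libraries. Ubiquitin rose by 1.17 on the log2 scale (SE 0.32, edgeR adjusted p = 0.0084). Without trichome replicate 4 the log2 fold change was 0.90, and without collection 2 the call was lost (1.12, adjusted p = 0.0519).

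CAC, of the vesicle coat, had 39.7, 37.5, 41.0 and 51.4 CPM in trichome and 20.1, 23.6, 26.9 and 20.3 CPM in leaf. The lowest trichome library was well above the highest leaf library. The log2 fold change was 0.90 (SE 0.15, edgeR adjusted p = 5.41e-04), and the call held in all 20 alternative fits, which gave 0.65 to 1.00. CAC is counted from 399 to 1111 reads per library.

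TIP41 stood at 60.2, 52.8, 47.2 and 62.1 CPM in trichome and at 35.2, 29.7, 35.3 and 38.9 CPM in leaf. Its tissues were apart in every collection, by 0.42 to 0.83 on the log2 scale. TIP41 rose by 0.68 (SE 0.14, edgeR adjusted p = 0.0017), and it was called in all 20 alternatives, with log2 fold changes from 0.46 to 0.75.

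SAND had 56.5, 46.2, 55.8 and 52.5 CPM in trichome and 64.5, 51.7, 52.3 and 67.5 CPM in leaf. The tissues overlapped, with trichome the lower in 3 of 4 collections. The log2 fold change was -0.16 (SE 0.14, edgeR adjusted p = 0.319, limma-voom 95% interval -0.46 to 0.15), and it was not called in any of the 20 alternatives (adjusted p 0.0702 to 0.613). With library size alone SAND did not overlap between tissues, at 56.8, 42.9, 57.1 and 40.6 CPM in trichome and 66.6, 64.0, 59.0 and 63.2 CPM in leaf, and the log2 fold change was -0.36. For ACT and SAND these intervals bound a tissue difference, and they do not show its absence.

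Expressed, counted from the fewest reads, was at 20.2, 19.3, 21.7 and 19.1 CPM in trichome and at 10.2, 8.25, 9.40 and 9.29 CPM in leaf. With TMM factors both groups were tight and lay far apart, so that the 2 tissues accounted for 97.2% of the sum of squares of its log2 CPM. With library size alone that share was 86.3%, and the SD of log2 CPM was 0.255 in trichome and 0.135 in leaf. It rose by 1.11 (SE 0.13, edgeR adjusted p = 4.57e-05) and was called in all 20 alternatives. Its 203 to 590 counts per library carry a counting error of 4.12% to 7.02%.

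Ranked by the SD of log2 CPM over the 8 libraries with TMM factors, ACT came first (0.170), then SAND (0.178), Tom51 (0.384), TIP41 (0.393), EF1alpha (0.471), CAC (0.514), Expressed (0.600) and ubiquitin (0.732). With library size alone the order was ACT (0.229), SAND (0.267), TIP41 (0.268), Tom51 (0.382), EF1alpha (0.431), CAC (0.433), Expressed (0.511) and ubiquitin (0.566). The 2 orders differed only in Tom51 and TIP41, which exchanged places. With TMM factors ACT and SAND stood well apart from the rest, whereas with library size alone TIP41 was level with SAND. Under 16 other settings (factors, prior count, libraries or collections left out) ACT and SAND held the first 2 places in all 16, in either order. Expressed and ubiquitin held the last 2 places in all 16 as well.

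**Figure D2:**
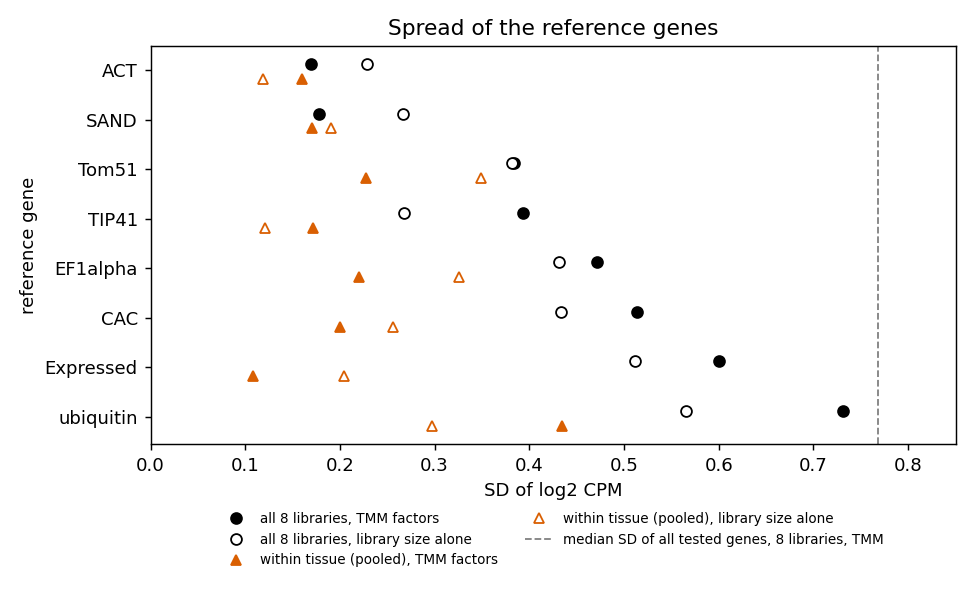
SD of log2 CPM of each reference gene (horizontal axis) over all 8 libraries (circles) and within tissues (triangles, pooled over trichome and leaf, n = 4 each), with TMM factors (filled) and with library size alone (open). The dashed line marks the median of all tested genes, 0.768, with TMM factors. Expressed has the smallest filled triangle, 0.108, beside the second largest filled circle, 0.600.

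Set beside all tested genes, of any level, all 8 reference genes had an SD below the median. With TMM factors 3.23% of tested genes had a smaller SD than ACT and 3.71% a smaller SD than SAND, which is 659 and 758 genes. The share was 21.4% for Tom51, 22.3% for TIP41, 29.0% for EF1alpha, 32.5% for CAC, 39.1% for Expressed and 47.9% for ubiquitin. Ubiquitin thus lay near the middle of all tested genes. Among genes with a mean of at least 10 CPM, 57.3% had a smaller SD than ubiquitin and 48.2% a smaller SD than Expressed. Among 3837 genes with a mean of at least 50 CPM, ACT held place 121, SAND 140, Tom51 827, EF1alpha 1129 and ubiquitin 1875. With library size alone these places were 272, 386, 794, 981 and 1454, and 8.56% of tested genes had a smaller SD than TIP41.

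**Figure D3:**
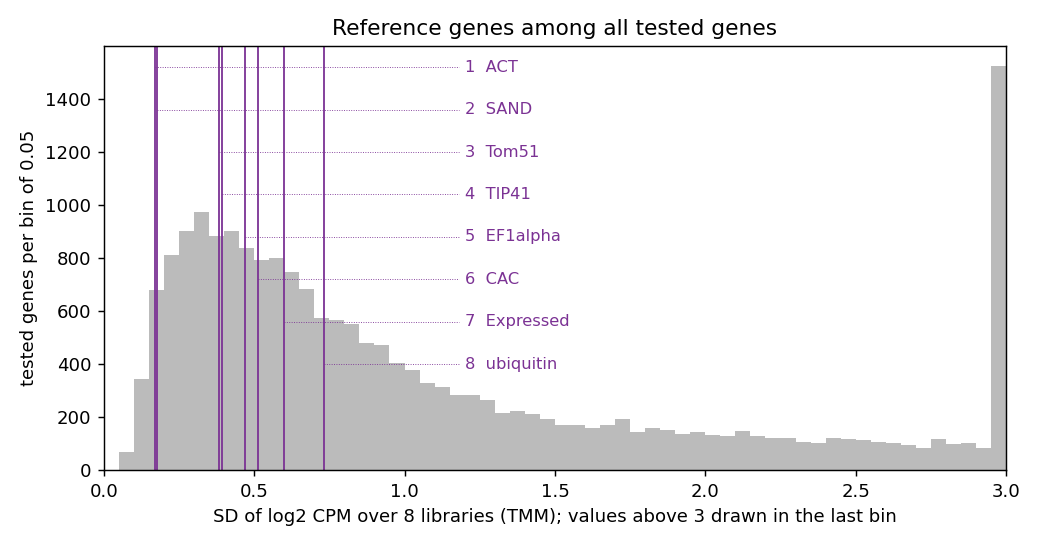
Number of tested genes (vertical axis) by SD of log2 CPM over the 8 libraries with TMM factors (horizontal axis), with vertical lines for the 8 reference genes numbered by rank. ACT and SAND stand at the low edge of the distribution, and ubiquitin at 0.732 is close to the median of 0.768.

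Spread within a tissue gave another order. With TMM factors the pooled within-tissue SD was smallest for Expressed (0.108), followed by ACT (0.160), SAND (0.170), TIP41 (0.172), CAC (0.200), EF1alpha (0.220), Tom51 (0.227) and ubiquitin (0.434). Expressed therefore went from the seventh place over both tissues to the first within them, and 3.54% of tested genes had a smaller within-tissue SD. For ubiquitin that share was 61.7%. With library size alone ACT (0.119) and TIP41 (0.121) led, Expressed was at 0.204, and Tom51 came last at 0.349. The tissues also differed in which gene was steadiest. With TMM factors it was Expressed in trichome (SD 0.086) and ACT in leaf (0.047). With library size alone it was ACT in trichome (0.069) and TIP41 in leaf (0.062). For ACT the SD was 0.222 in trichome and 0.047 in leaf with TMM factors, but 0.069 in trichome and 0.154 in leaf with library size alone. EF1alpha had an SD of 0.099 in trichome and 0.295 in leaf with TMM factors.

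Ratios between the genes' counts within a library do not depend on any factor. Of the 28 pairs, 15 had ratios that did not overlap between the tissues, or 53.6%, beside 69.7% of all 208253436 pairs of tested genes. ACT over SAND was among the pairs that overlapped: the ratio was 6.75, 8.94, 7.28 and 10.3 in trichome and 7.57, 8.87, 9.44 and 7.13 in leaf. The mean log2 ratios were 3.04 in both tissues, although single libraries spread by an SD of 0.220. All 12 pairs of ACT or SAND with one of the other 6 genes were separated, by 0.76 to 1.30 on the log2 scale in favour of the other gene in trichome. Of the 15 pairs among those 6 genes, 3 were separated: Tom51 over CAC (-0.30), TIP41 over Expressed (-0.44) and Tom51 over Expressed (-0.51). This split of the 8 genes follows their calls in the same libraries, so the counts for its parts are descriptions.

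**Figure D4:**
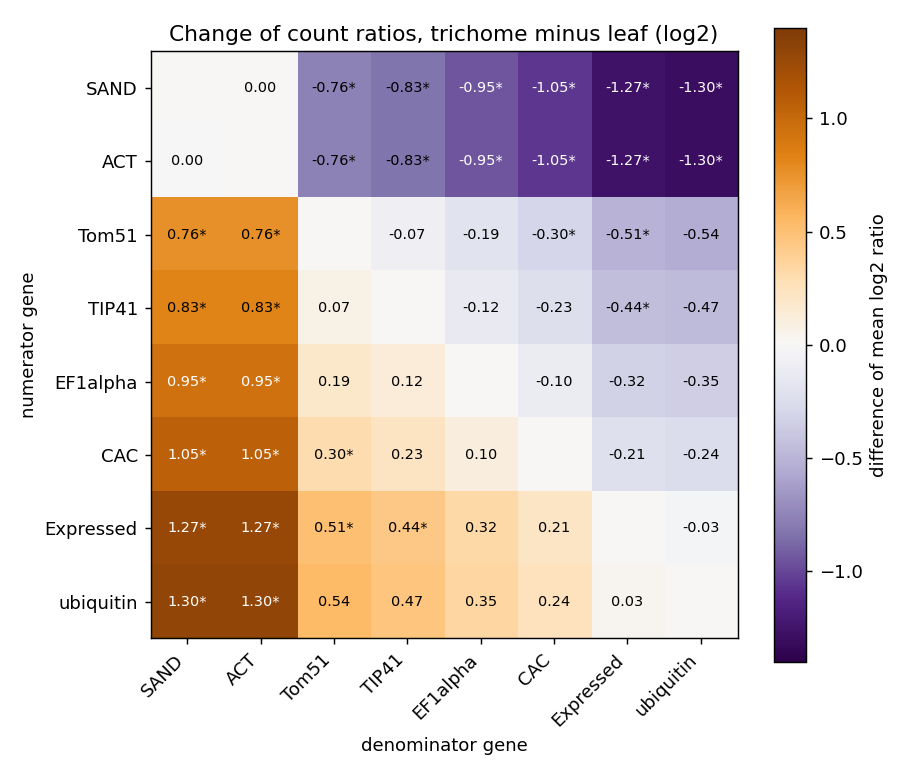
Difference in mean log2 count ratio, trichome minus leaf, of the row gene over the column gene, with genes ordered by fold change. An asterisk marks pairs whose 4 trichome and 4 leaf ratios do not overlap, and the blocks that set ACT and SAND against the other 6 genes are all marked.

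The steadiest single ratio was EF1alpha over CAC, with an SD of 0.176 over 8 libraries. It was 14.01, 12.63, 12.60 and 10.39 in trichome and 11.17, 14.42, 13.06 and 14.70 in leaf. EF1alpha and CAC nevertheless were both called higher in trichome, so a steady ratio went with a shared difference. A stability measure made of such ratios, the mean SD of a gene's ratios to the other 7 (geNorm's M), put TIP41 first (0.360), then CAC (0.370), Tom51 (0.381), EF1alpha (0.385), Expressed (0.440), ACT (0.540), SAND (0.560) and ubiquitin (0.582). ACT and SAND, first and second by SD, were sixth and seventh by this measure. Stepwise removal of the gene with the highest M took out ubiquitin, SAND, ACT, Expressed, TIP41 and Tom51, and left EF1alpha and CAC. By either measure ubiquitin was last.

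Averages of 2 genes were also compared. The mean log2 CPM of ACT and SAND had the smallest SD of the 28 pairs with TMM factors (0.135), and the tissues differed by -0.16. With library size alone that pair was behind 12 others (0.223, tissue difference -0.37), and the smallest SD was that of ACT and TIP41 (0.079, tissue difference 0.04). A small tissue difference did not by itself give a small SD. On that scale ACT and Tom51 had a tissue difference of 0.004 and an SD of 0.209. The mean of all 8 genes had an SD of 0.339 with TMM factors and 0.243 with library size alone, and stood 0.61 and 0.39 higher in trichome. The choice of factor thus changed which pair came first, and library size alone moved the median log2 fold change of all tested genes by -0.21 relative to TMM factors.

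The choice of a reference carried over to every other gene. The fold changes of the 8 genes spanned 1.33 on the log2 scale, or 2.51-fold, from SAND to ubiquitin. With TMM factors 4671 tested genes were at least 2-fold higher and 6676 at least 2-fold lower in trichome, with no test applied. With ACT set to no change these numbers were 5296 and 6270, and with SAND 5371 and 6219. With ubiquitin they were 1855 and 11586, and with Expressed 1930 and 11294. The median of all tested genes came to 0.05 against ACT, 0.07 against SAND, -0.68 against Tom51, -0.77 against TIP41, -0.87 against EF1alpha, -0.99 against CAC, -1.21 against Expressed and -1.26 against ubiquitin. Against the mean of all 8 it was -0.71.

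**Figure D5:**
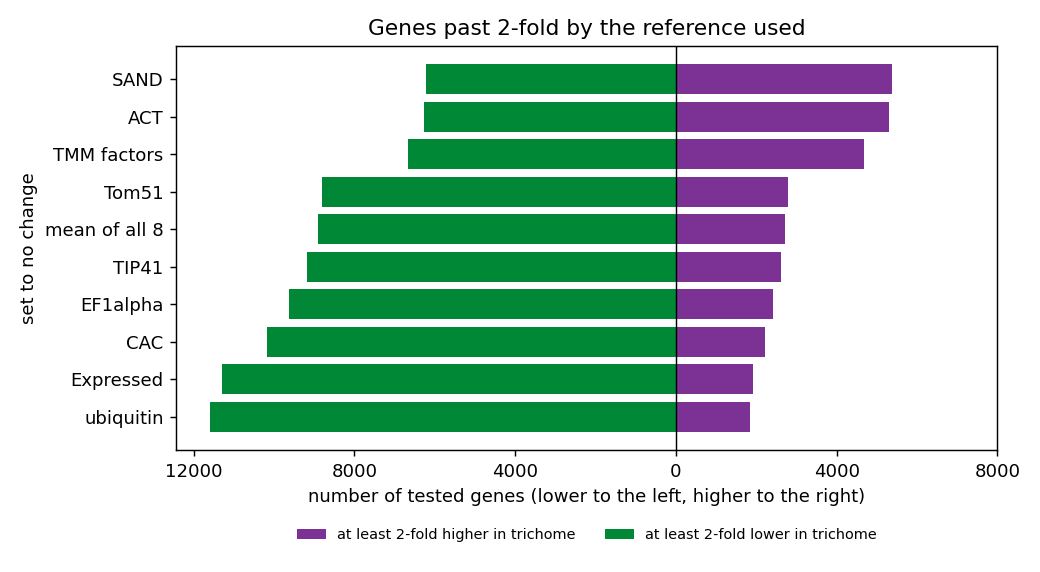
Number of tested genes at least 2-fold higher (right) and at least 2-fold lower (left) in trichome when TMM factors, a single reference gene or the mean of all 8 sets the level of no change. The higher side shrinks from 5371 genes with SAND to 1855 with ubiquitin.

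Some relatives of the reference genes differed far more between the tissues. Of 6 other actins, 5 were tested: 1 was higher, 2 were lower and 2 were not called, with a median log2 fold change of -0.36. The 3 calls among 5 stand beside 72.4% of all tested genes called, 33.9% higher and 38.5% lower. Solyc01g104770 was at 203.5 ± 43.5 CPM in trichome and 21.96 ± 3.45 CPM in leaf (SD, n = 4 each), a log2 fold change of 3.21 (edgeR adjusted p = 1.48e-06). Solyc05g054480 had 0.0575 ± 0.0470 CPM in trichome, at most 0.111 CPM in a library, and 9.07 ± 1.42 CPM in leaf. Tom52 (Solyc10g080500) fell by 1.04 on the log2 scale, with 110.4 ± 34.5 CPM in trichome and 226.7 ± 38.1 CPM in leaf. Tom41 (Solyc04g011500) was lower in trichome in all 4 collections without a call (-0.36, edgeR adjusted p = 0.107), and was called in 5 of 20 alternatives, such as library size alone (-0.59, adjusted p = 0.0078). Solyc06g076090, at 4.31 ± 0.46 CPM in trichome and 2.53 ± 1.06 CPM in leaf, had a log2 fold change of 0.76 that was not called (edgeR adjusted p = 0.0534). It was called in 6 of 19 alternatives, such as the collection as a block (0.85, adjusted p = 0.0437) and limma-voom (0.83, adjusted p = 0.0331). Solyc10g086460 had at most 2 counts in a library and was not tested.

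Of 3 other IDs listed as EF1alpha copies, 2 were tested and 1 was called higher, beside 33.9% of all tested genes called higher. Solyc11g069700 averaged 69.0 ± 55.1 CPM in trichome and 9.93 ± 3.33 CPM in leaf. It rose by 2.80 on the log2 scale (edgeR adjusted p = 0.0030), with single trichome libraries from 12.2 to 144.5 CPM. Leaf libraries reached 14.4 CPM, so the tissues overlapped. Solyc06g009970 was not called, with 325.2 ± 49.9 CPM in trichome and 248.6 ± 51.7 CPM in leaf (0.39, edgeR adjusted p = 0.118). Solyc06g009960 had at most 1 count in a library.

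Of 7 further genes listed as qPCR references, 6 were tested, 4 were higher in trichome and 2 were not called, beside 72.4% of all tested genes called and 33.9% called higher. Their median log2 fold change was 0.74, like the 0.73 of the 8. GAPC2 (Solyc05g014470), a cytosolic glycolytic dehydrogenase, stood at 648.7 ± 26.6 CPM in trichome and 416.5 ± 20.8 CPM in leaf and rose by 0.64 (edgeR adjusted p = 0.0037), a call lost with library size alone (0.41, adjusted p = 0.0608). PP2AC1 (Solyc05g006590), a phosphatase catalytic subunit, rose by 0.83, and the ribosomal protein gene RPL8 (Solyc10g006580) by 0.87. For RPL8 the tissues overlapped, with a lowest trichome library of 61.1 CPM and a highest leaf library of 63.8 CPM. Solyc01g056940 rose by 0.88. RPL8 and Solyc01g056940 lost their calls with library size alone (adjusted p = 0.101 and 0.0914) and without collection 1 (adjusted p = 0.0545 and 0.0623). TUB (Solyc04g081490), a tubulin gene, was at 93.3 ± 55.3 CPM in trichome and 195.1 ± 72.0 CPM in leaf, with a log2 fold change of -1.06 that was not called (edgeR adjusted p = 0.0651). With the collection as a block it was called (-1.25, adjusted p = 0.0146), as in 6 of 20 alternatives in all. Solyc11g006460, at 783.1 ± 98.2 CPM in trichome and 969.6 ± 66.4 CPM in leaf, was not called (-0.31, edgeR adjusted p = 0.151). It was called in 3 of 20 alternatives: library size alone (-0.53, adjusted p = 0.0169), DESeq2 (-0.37, adjusted p = 0.0223) and testing only genes that reached 5 CPM in 4 or more libraries (-0.41, adjusted p = 0.0491). Its SD over the 8 libraries, 0.216, lay between those of SAND and Tom51. Solyc01g111170 had no count in any library.

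Genes steadier than any of the 8 were abundant enough to measure. Among the 3837 genes with a mean of at least 50 CPM, the 5 with the smallest SD with TMM factors were Solyc02g062620 (0.070), Solyc06g075590 (0.071), Solyc02g071890 (0.084), Solyc02g077410 (0.086) and Solyc08g077420 (0.090). Solyc02g062620 was at 77.5 ± 3.96 CPM in trichome and 73.0 ± 1.82 CPM in leaf, and Solyc06g075590 at 61.6 ± 3.11 CPM in trichome and 64.7 ± 2.47 CPM in leaf. Their steadiness was tied to the factors: with library size alone their SDs were 0.157 to 0.228, none was among the first 5, and they held places 76 to 263. These genes were picked as the extremes of the same 8 libraries, so their SDs are descriptions.

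For each reference gene, the closest other gene library by library was picked from the same 8 libraries, so the distances are descriptions. Among 11762 others with a mean of at least 10 CPM, the nearest to ACT was Solyc08g067920, whose centred log2 CPM differed by a root mean square of 0.045. For SAND it was Solyc05g006540 (0.058), for CAC Solyc07g053650 (0.069), for Expressed Solyc02g068690 (0.072), for TIP41 Solyc04g024590 (0.073) and for EF1alpha Solyc11g069000 (0.077). Tom51 was nearest to Solyc10g084210 (0.092), and ubiquitin to Solyc03g008000 (0.132), the largest distance of the 8. This distance also grows with a gene's own spread. The Pearson correlation with the neighbour was 0.984 for ubiquitin, within a range from 0.944 for SAND to 0.994 for CAC. Within the set of 8, EF1alpha and CAC were each other's nearest (0.164), as were ACT and SAND (0.205).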

How the data were processed

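The authors deposited raw HTSeq counts of reads per gene, 1 file per library, without normalization. Per the submitters' processing notes, Trimmomatic, TopHat2, SAMtools and HTSeq were used. Versions, genome build, annotation and strand setting: not given in the sources used here. The 5 summary lines that HTSeq adds did not enter library sizes, and held 18.4% to 24.4% of all counted reads in trichome and 12.7% to 14.5% in leaf. IDs were matched without prefix and version. Of 34725 IDs, 0 are in the RefSeq table (assembly SLM_r2.1), so names were checked by chromosome and relative position, within 5 percentage points. UBI3 and DNAJ failed and are given as IDs.

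The test was edgeR's quasi-likelihood test (edgeR 4.0.16, R 4.3.3, TMM factors, filterByExpr, no block), adjusted over all 20409 tested genes. SEs were derived from the fold change and its F statistic, and intervals are from limma 3.58.1 (voom). Log2 CPM used a prior count of 2. DESeq2 1.42.0, other factors and filters, and left-out libraries were alternatives. Named were all 8 genes, 3 lists of related genes, the 5 steadiest genes at 50 CPM or more, and the nearest gene at 10 CPM or more. The members and lists were chosen with earlier results of these data known, and the settings for pair ratios and the scaled median after seeing the data.

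Same-numbered libraries share a sampling time, per the labels, and were taken as pairs only where collections are compared, blocked or left out. Their deviations from group means correlated at 0.0990, 0.136, 0.188 and 0.166 in collections 1 to 4, beside -0.197 to 0.135 between different numbers. Collection 1 lay within that range, collection 2 barely above it, and collections 3 and 4 above it. The pairing itself was taken from the labels. None of the 12 replicate pairs agreed within sampling noise. P-values treat the 4 collections as independent, per the labels. Those of the main test, which has no block, also treat trichome and leaf of the same collection as independent. A count of 3, the limit a count of 0 allows, is 0.113 to 0.122 CPM in trichome and 0.0859 to 0.156 CPM in leaf. Such limits cover counting error only.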

Additional observations from a re-analysis of the deposited data

How the results depend on the processing

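When libraries were scaled by size alone, Tom51 (log2 fold change 0.35, adjusted p = 0.208) and EF1alpha (0.54, 0.0567) lost their calls, and ACT gained one (-0.38, 0.0491). That scale moves the median of all tested genes by -0.21, and the tested genes called numbered 13606 in place of 14780, 38.7% of them higher in trichome in place of 46.9%. Leaving out libraries or collections gave log2 fold changes of 0.45 to 0.71 for Tom51, whose call was lost without collection 1 or 4, and of 0.90 to 1.38 for ubiquitin, whose call was lost without collection 2. The cause was not tested. The other calls of the 8 genes, and all their directions, held in edgeR with RLE or upper-quartile factors, other filters and left-out libraries, and in DESeq2 and limma-voom. With the replicate block 6 of 8 were called, as without it, beside 14522 of 20409 tested genes (46.6% of those called were higher), and it changed no call of the 8 (ACT -0.16, adjusted p = 0.483; Tom51 0.60, 0.0299). Pairs with separated ratios numbered 15 to 18 of 28 when a library or collection was left out. Leaving libraries out cannot make a separated pair overlap, so this count could not fall and does not test the separation. Depth limits Expressed and CAC most.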
